A study of Mus musculus with 2 samples.

Results

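Transcripts of 6 germ cell RNA-binding proteins, Nanos2, Nanos3, Dnd1, Dazl, Ddx4 and Lin28a, were followed in mouse germ cells during the first days of sexual differentiation. The genes were chosen by name, as the rows of the germ cell count table whose Ensembl identifier carries 1 of these 6 symbols. They are 6 of the 42422 genes counted, and all 6 were among the 15252 genes that passed the filter on low counts. Gonads with the mesonephros attached were taken at E12.5 from crosses of ASMU Swiss mice with a 129svJT2 line carrying the Oct4-eGFP transgene, with the genotype given as WT. The 10 groups held 4 libraries each. They were XX and XY germ cells at 0 h, before culture, XX and XY germ cells cultured for 24 h or 72 h with DMSO as vehicle, and XY germ cells cultured for 24 h or 72 h with an FGFR inhibitor (FGFRi, BGJ398) or a MEK inhibitor (MEKi, PD0325901), both at 500 nM. The inhibitors were given to the whole gonad, so somatic cells were exposed as well as germ cells. Several gonads were pooled for each replicate before GFP-positive cells were sorted, and p-values therefore measured the spread between such pools. In these bulk libraries, fewer cells carrying a transcript and less RNA per cell cannot be told apart.

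RNA-binding proteins control which mRNAs a foetal germ cell keeps and translates. NANOS2 is a male-specific protein that brings target mRNAs to the CCR4-NOT complex, which removes their poly(A) tails, and it is known for restraining meiosis in the foetal testis. NANOS3 acts earlier in the same family and is needed for survival of primordial germ cells, and DND1 binds mRNA as a partner of NANOS proteins. DAZL promotes translation and allows germ cells of either sex to begin sexual differentiation. DDX4, the mouse homologue of Vasa, is an RNA helicase of germ granules. LIN28A binds precursors of the let-7 microRNAs and blocks their maturation in pluripotent and early germ cells. In the foetal testis, Sertoli cells secrete FGF9, whose receptors (FGFRs) signal through MEK and ERK.

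The RefSeq table of promoter windows (GRCm38.p6) held 5 of the 6 members. The 250 bases upstream of the start are shown for a pair of members that differed between the sexes from 24 h (Nanos2, Nanos3) and for the pair that varied least between groups (Dazl, Ddx4). They are written 5′ to 3′ on the strand of the gene, and capitals mark GGAAG or its reverse complement CTTCC, the core letters bound by ETS transcription factors, a family that includes targets of ERK.
Nanos2, chr7:18987274-18987523, forward strand: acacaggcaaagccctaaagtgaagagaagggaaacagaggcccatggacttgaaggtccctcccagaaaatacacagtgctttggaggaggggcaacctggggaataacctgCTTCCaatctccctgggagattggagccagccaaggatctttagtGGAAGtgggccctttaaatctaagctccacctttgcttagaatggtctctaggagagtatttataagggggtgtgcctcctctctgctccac
Nanos3, chr8:84176553-84176802, reverse strand: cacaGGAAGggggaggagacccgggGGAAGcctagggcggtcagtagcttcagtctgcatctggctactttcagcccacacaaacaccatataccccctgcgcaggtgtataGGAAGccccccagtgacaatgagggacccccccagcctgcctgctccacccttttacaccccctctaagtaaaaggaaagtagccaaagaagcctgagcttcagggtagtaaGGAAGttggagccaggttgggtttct
Dazl, chr17:50293621-50293870, reverse strand: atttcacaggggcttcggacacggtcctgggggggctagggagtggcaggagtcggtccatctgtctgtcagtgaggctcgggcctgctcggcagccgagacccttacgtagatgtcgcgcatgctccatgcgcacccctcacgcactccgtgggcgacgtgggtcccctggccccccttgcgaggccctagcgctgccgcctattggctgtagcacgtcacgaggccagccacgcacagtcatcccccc
Ddx4, chr13:112652311-112652560, reverse strand: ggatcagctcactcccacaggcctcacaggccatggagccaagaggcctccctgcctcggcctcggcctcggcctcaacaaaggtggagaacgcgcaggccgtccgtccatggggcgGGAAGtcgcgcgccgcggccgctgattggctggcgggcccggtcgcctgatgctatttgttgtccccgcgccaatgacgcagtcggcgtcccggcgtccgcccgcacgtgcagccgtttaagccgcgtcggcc
The windows differed in CpG dinucleotides. Nanos2 had 0, Nanos3 had 3 and Lin28a had 7 CpGs, whereas Dazl had 20 and Ddx4 had 31, more than 82% and 94.8% of the 32841 RefSeq windows of this length. The median window held 6. GGAAG, searched on both strands, was found 2 times in Nanos2, 4 times in Nanos3, 2 times in Lin28a, 1 time in Ddx4 and 0 times in Dazl, and it was present in 64.1% of all windows, so its presence was common. TATAAA was found 1 time in Nanos2, on the reverse strand 33 bases upstream of the start, and in 12.4% of all windows. CACGTG was found in Ddx4 and in 6.02% of all windows. GGCGGGAA, which shares letters with the capitalised GGAAG, was found in Ddx4 and in 1.85% of all windows. CCGGAAGT, present in 2.88% of all windows, was found in none of the 5 members. A match describes letters and not a bound site.

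In the GRCm39 annotation, Nanos2 (ENSMUSG00000051965) lies on chromosome 7 from 18721325 to 18722887 on the forward strand. The other members lie on the reverse strand. Nanos3 (ENSMUSG00000056155) spans 84900360 to 84911846 on chromosome 8, and Dnd1 (ENSMUSG00000044595) spans 36896722 to 36899297 on chromosome 18. Dazl (ENSMUSG00000010592) spans 50586366 to 50600664 on chromosome 17, Ddx4 (ENSMUSG00000021758) spans 112734867 to 112789009 on chromosome 13, and Lin28a (ENSMUSG00000050966) spans 133730641 to 133746173 on chromosome 4. Dnd1 overlaps the protein-coding gene Wdr55 on the opposite strand, which drew 4853 counts in all 40 libraries. Nanos2 overlaps the antisense transcript Gm45058, which drew 2 counts. The paper states that cDNA was read in the sense direction and that reads were assigned to annotated exons.

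Libraries held 1178953 to 5199153 counts, with a median of 2135129. The tested genes carried 99.2% of the counts. Libraries were sequenced in 2 pools: the first held both 0 h groups, both 24 h DMSO groups and XY 24 h MEKi, and the second held XY 24 h FGFRi and every 72 h group, so in the comparison of FGFRi with DMSO at 24 h and in all comparisons of 72 h with 0 h, pool and condition cannot be told apart. Sample indexes were shared between pools for 16 of the 20 libraries of the first pool, and Y-linked counts in XX 24 h libraries (88), above the rate in XX 0 h libraries (21), whose partners were XX as well, gave an estimate that counts equal to 3.25% of the partner library's had crossed over. This share was applied to every pair and was not measured in XY libraries. Of 26 somatic and blood markers, the sum took 0.0113% to 0.0641% of counts in every library. Among Leydig cell markers, Insl3 was at 0 in all groups and Cyp11a1 in XY 24 h FGFRi, whereas group means ran up to 3.40 CPM for Cyp11a1 and from 1.86 to 9.40 CPM for Star. Of the 20 that were tested, Sox9 was the 1 called between XY and XX at 24 h, higher in XY, against 4.00% of all genes. At 72 h, 3 were higher, against 22.8%, and 3 were lower, against 18.1%. In XY cells from 0 h to 72 h, 4 rose, against 20.2%, and 3 fell, against 15.2%. Their part in the differences of the members was not tested. Together 6 germ cell markers took 0.100% to 0.526% of counts outside XX 72 h, and 0.0192% to 0.0315% in XX 72 h.

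The 6 transcripts followed distinct courses, as the plot of log2 values by library shows. Levels are given as CPM, counts scaled to the TMM-adjusted library size, and group values as mean ± SD over 4 libraries. They were not compared between genes, since each count is a tagged 3′ end. The highest group mean exceeded the lowest 93.9-fold for Nanos2, 27.6-fold for Nanos3, 22.9-fold for Dnd1 and 14.0-fold for Lin28a, but only 2.06-fold for Dazl and 2.44-fold for Ddx4. Nanos2 drew 0 to 129 counts per library, so its values carry the widest counting error.

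**Figure D1:**
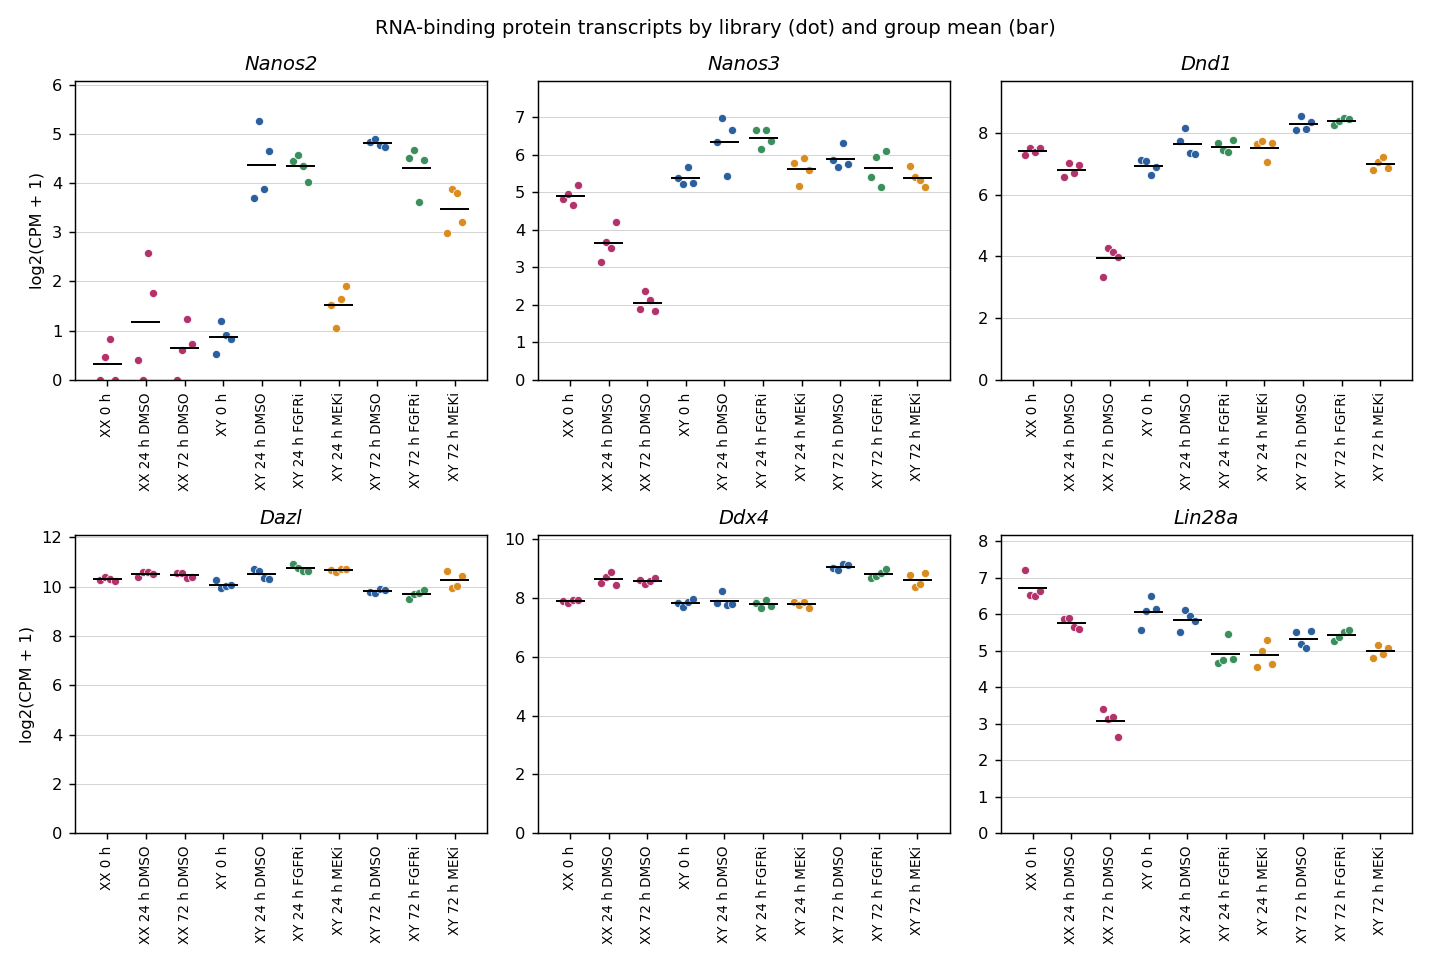
Each dot is 1 library and each bar the mean of the 4 libraries of a group, on the log2(CPM + 1) scale, with 1 panel for each gene and its own axis from 0. Nanos2 was at 4.96 CPM or less in every XX and XY 0 h library, Dnd1 and Lin28a were lowest in XX 72 h, and Dazl and Ddx4 stayed within a narrow band.

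A gene was called changed where limma's treat test against a 1.5-fold change gave a false discovery rate (FDR) under 0.05 over all tested genes. Between XY and XX germ cells at 0 h, no member was called, and none had an unadjusted p under 0.05, against 1.34% of all genes called higher and 1.65% called lower in XY. EdgeR's glmTreat also called 0, while limma and edgeR without a fold threshold each called 2, Dnd1 and Lin28a, both lower in XY, against 10.7% of all genes lower in that limma test and 8.73% in that edgeR test. At 24 h, 2 of 6 members, Nanos2 and Nanos3, were called higher in XY, against 4.00% of all genes. At 72 h, 4 of 6 were called higher, with Dnd1 and Lin28a added, against 22.8% of all genes.

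**Figure D2:**
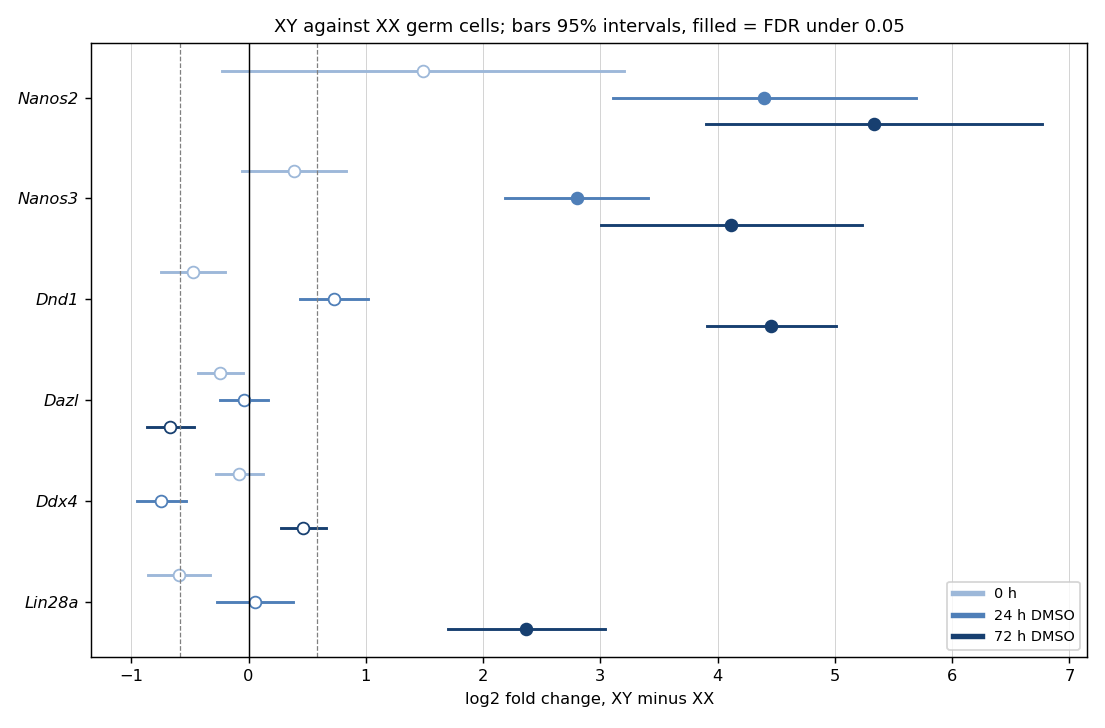
Points are log2 fold changes of XY minus XX for each gene at 0 h, 24 h and 72 h, bars are 95% intervals from limma, filled points had an FDR under 0.05, and dashed lines mark a 1.5-fold change in either direction. Filled points lie to the right of the threshold for Nanos2 and Nanos3 at 24 h and for those genes, Dnd1 and Lin28a at 72 h.

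Nanos2 was almost undetected at the start. XX 0 h libraries held 0, 1, 2 and 0 counts, and XY 0 h libraries held 1, 5, 1 and 2 counts. The 2 groups overlapped, and the ratio of their depth-scaled counts was 3.12, with a 95% interval for counting error of 0.778 to 17.9. After 24 h with DMSO, XY libraries were at 11.9, 37.5, 13.8 and 24.1 CPM, and every one of them was above every XX library. XX 24 h libraries were at 0.311, 0, 4.96 and 2.40 CPM. The difference between the sexes was 4.40 on the log2 scale (SE 0.645, FDR = 7.48e-06), and 3.78 without XX 24 h replicate 5, the library with no count. With edgeR's glmTreat it was 3.59 and with DESeq2's Wald test 3.60, and both called it. At the estimated share, counts crossing through the shared index would account for 58.1% of the 17 Nanos2 counts in XX 24 h and 75.9% of the 9 in XY 0 h, and after their removal the difference between the sexes at 24 h was 5.22.

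By 72 h, XY DMSO libraries were at 27.8, 28.8, 26.6 and 25.9 CPM, and XX libraries were at 0, 0.516, 1.34 and 0.647 CPM. The log2 difference was 5.34 (SE 0.714, FDR = 8.04e-08), with 4 counts in all in the XX group. In XY cells the level at 72 h was also above that at 0 h by 4.65 on the log2 scale (FDR = 1.93e-08), or by 5.67 with the crossed counts removed. The increase over 24 h of culture was greater in XY than in XX by 2.91 on the log2 scale, which was not called (SE 1.07, FDR = 0.529). It was called in none of 26 alternatives, over which it ran from 2.01 with DESeq2 to 4.79 with the crossed counts removed.

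With MEKi, Nanos2 was at 1.86, 1.06, 2.12 and 2.74 CPM after 24 h, below every XY 24 h DMSO library, and this fall of 3.20 on the log2 scale was called (SE 0.501, FDR = 0.00152). The MEKi group mean of 1.94 ± 0.694 CPM stood beside 1.92 ± 2.29 in XX 24 h and 0.853 ± 0.354 in XY 0 h. Set against XY 0 h, the MEKi group had a count ratio of 2.11 (95% counting interval 0.865 to 5.47) and was not called. The log2 difference was 0.97, and 1.98 with the crossed counts of XY 0 h removed, with no call in 17 alternatives. Blood markers moved with this group: their summed share was 0.0200% to 0.0516% of counts in MEKi against 0.00424% to 0.0138% in DMSO libraries, and Hbb-y, Hba-x and Hba-a2 were called higher of the 20 somatic and blood markers tested, against 0.0525% of all genes. Their part in the Nanos2 difference was not tested.

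After 72 h, MEKi libraries were at 6.95, 13.8, 12.9 and 8.23 CPM, again below every DMSO library of that time. The fall of 1.25 on the log2 scale was close to the threshold (SE 0.234, FDR = 0.0377). It was lost in 10 of 18 alternatives. These included leaving out any 1 of the 4 DMSO libraries (FDRs of 0.0510 to 0.0880 for replicates 2, 4, 5 and 6), MEKi replicate 2 (FDR = 0.0912) or MEKi replicate 5 (FDR = 0.107). The 72 h MEKi libraries stayed above XX 72 h by 4.09 on the log2 scale (FDR = 4.76e-05). The MEKi difference was 1.96 log2 units less negative at 72 h than at 24 h, a change that was not called (SE 0.553, FDR = 0.194), although edgeR's glmTreat called it (2.14, FDR = 0.0404). FGFRi libraries were at 20.8, 22.8, 19.5 and 15.3 CPM after 24 h, inside the DMSO range, and the log2 difference of -0.03 had a 95% interval of -0.56 to 0.51. After 72 h with FGFRi they were at 21.8, 24.5, 11.2 and 21.1 CPM, all below the DMSO libraries, with a log2 difference of -0.43 and an interval of -0.85 to -0.01 that was not called (FDR = 1). The difference between MEKi and FGFRi at 72 h, -0.82, was not called either (FDR = 0.592). Ranked by mean, the ranges of neighbouring groups overlapped, except for XY 24 h FGFRi over XY 72 h MEKi and XY 72 h MEKi over XY 24 h MEKi.

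Nanos3 was detected in every library, and it fell in XX cultures while XY cells kept it. XX libraries were at 27.3, 30.1, 24.4 and 35.7 CPM at 0 h and at 2.68, 4.13, 3.35 and 2.59 CPM at 72 h. This fall of 3.15 on the log2 scale was called (SE 0.561, FDR = 7.36e-05). At 24 h the XX libraries were in between, at 7.78, 11.8, 10.4 and 17.6 CPM, below all 0 h libraries, but the difference of -1.33 was not called by limma (FDR = 0.193) and was called by edgeR's glmTreat (FDR = 0.0144). XY libraries were at 40.8, 36.3, 49.9 and 37.2 CPM at 0 h and at 79.8, 126.1, 42.0 and 99.6 CPM after 24 h with DMSO. Of the 24 h libraries, 3 exceeded every 0 h library and replicate 4 did not. The XY difference of 1.08 was not called (FDR = 0.171). EdgeR's glmTreat called it (FDR = 0.0416), and without XY 24 h DMSO replicate 4 it was 1.30 and called (FDR = 0.00606).

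The sexes differed in Nanos3 by 2.80 on the log2 scale at 24 h (SE 0.304, FDR = 9.64e-08) and by 4.12 at 72 h (SE 0.555, FDR = 2.14e-07). The change of the sex difference from 0 h to 24 h, 2.41, was itself called (SE 0.376, FDR = 0.00376) and was called in all 26 alternatives. Nanos3 was 1 of 6 members called in that test, against 0.236% of all genes called higher. At 72 h the XY DMSO libraries were at 56.8, 49.7, 78.6 and 53.1 CPM. With MEKi they were at 53.9, 35.1, 59.8 and 47.6 CPM after 24 h and at 51.1, 41.9, 38.9 and 34.1 CPM after 72 h, overlapping DMSO at both times. The MEKi differences of -0.75 and -0.54 were not called (FDR = 1 for each), with 95% intervals of -1.14 to -0.36 and -0.92 to -0.16. FGFRi groups had means of 88.0 ± 14.6 CPM at 24 h and 51.0 ± 15.7 CPM at 72 h and overlapped DMSO. Between neighbours in the order of means, the ranges were apart only for XY 0 h over XX 0 h, XX 0 h over XX 24 h and XX 24 h over XX 72 h.

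Dnd1 was called between the sexes at 72 h. At 0 h it was higher in XX, at 154.6, 180.0, 166.8 and 180.6 CPM, than in XY, at 137.8, 135.1, 98.02 and 118.4 CPM, with no overlap, yet the log2 difference of -0.47 was within 1.5-fold (FDR = 1). At 24 h the order was the other way, with means of 204.6 ± 58.5 CPM in XY and 111.9 ± 16.6 CPM in XX, again with no overlap, and the difference of 0.73 was not called (FDR = 0.683). The change in the sex difference, 1.203, was not called (FDR = 0.142). It was called without XY 24 h DMSO replicate 5 (FDR = 0.0355), with crossed counts removed (FDR = 0.00876) and by edgeR's glmTreat (FDR = 0.0107).

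At 72 h, Dnd1 was at 275.3, 372.0, 277.6 and 328.4 CPM in XY and at 9.10, 18.1, 16.7 and 14.9 CPM in XX. The difference of 4.46 on the log2 scale (SE 0.274, FDR = 5.52e-18) had the smallest FDR among the members. Both sexes changed from 0 h to 72 h. Dnd1 fell by 3.62 on the log2 scale in XX (SE 0.275, FDR = 3.92e-14) and rose by 1.31 in XY (SE 0.132, FDR = 4.19e-06).

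Dnd1 was lower with MEKi at 72 h. MEKi libraries were at 109.2, 132.7, 146.7 and 115.6 CPM, below every DMSO library. This was a fall of 1.25 on the log2 scale (SE 0.124, FDR = 5.32e-05), called in all 18 alternatives, to a mean of 126.0 ± 17.0 CPM beside 122.3 ± 18.3 in XY 0 h. Of the 20 somatic and blood markers tested, 2 were called lower with MEKi at 72 h, against 5.11% of all genes, and 0 higher. The 2 were the endothelial gene Cdh5, at 1.81 CPM against 9.72 CPM, and the erythroid gene Alas2, at 1.44 CPM against 7.42 CPM. Among other endothelial markers, Pecam1 libraries were at 9.43 to 21.4 CPM with MEKi and 5.37 to 9.32 CPM with DMSO, and Kdr overlapped. The summed share of all 26 markers also overlapped, at 0.01355% to 0.0255% of counts with MEKi and 0.0168% to 0.0224% with DMSO. The part of these markers in the fall of Dnd1 or in that of Nanos2 was not tested. At 24 h, MEKi libraries were at 197.4, 210.4, 131.7 and 201.5 CPM, within the range of DMSO except for replicate 4, and the difference of -0.04 had an interval of -0.31 to 0.23. The difference between the 2 times was -1.21 (SE 0.183, FDR = 0.0383). It was lost in 15 of 26 alternatives, with FDRs up to 0.331. These included leaving out XY 24 h DMSO replicates 4 or 5, XY 24 h MEKi replicates 1, 2 or 6, XY 72 h DMSO replicates 4 or 6, or XY 72 h MEKi replicates 2 or 5, with FDRs of 0.0729 to 0.331. Dnd1 was 1 of 6 members called in that test, against 0.675% of all genes called lower. FGFRi libraries at 72 h were at 303.9, 330.6, 359.9 and 347.9 CPM, inside the DMSO range, and MEKi was lower than FGFRi by 1.34 (SE 0.121, FDR = 2.05e-06). Even so, XY 72 h MEKi was above XX 72 h by 3.21 (FDR = 1.02e-11).

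Among comparisons of inhibitor with DMSO, MEKi changed 1 of 6 members at 24 h (Nanos2, lower), against 0.111% of all genes called lower, and 2 of 6 at 72 h (Nanos2 and Dnd1, both lower), against 5.11% of all genes. FGFRi changed 0 of 6 at 24 h and 0 of 6 at 72 h, with 0 unadjusted p-values under 0.05 at either time, against 0.262% and 0.00656% of all genes called. For FGFRi, edgeR's glmTreat and DESeq2 also called 0, and edgeR without a fold threshold called 1 at 24 h, Lin28a, against 5.61% of all genes, and 0 at 72 h. Direct comparison of MEKi with FGFRi at 72 h called 1 of 6, Dnd1, against 6.98% of all genes called lower. Relative to XX 72 h, XY 72 h MEKi was higher in 4 of 6 members, Nanos2, Nanos3, Dnd1 and Lin28a, against 17.2% of all genes. These comparisons share their control libraries.

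**Figure D3:**
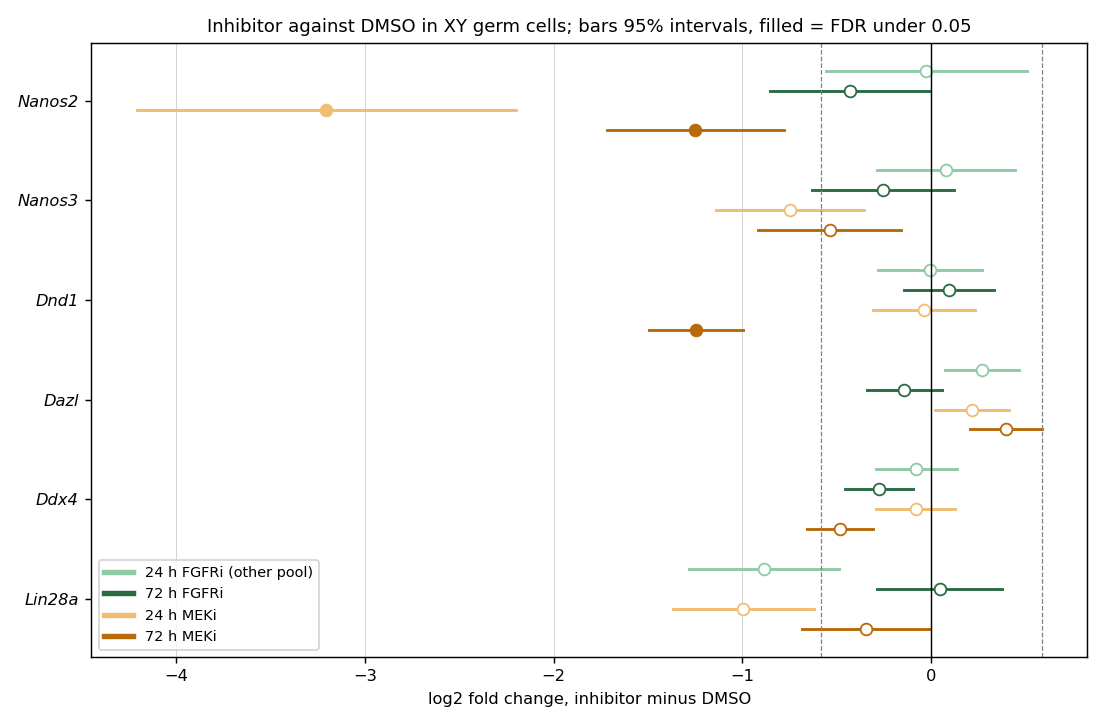
Points are log2 fold changes of inhibitor minus DMSO in XY germ cells for each gene, bars are 95% intervals from limma, filled points had an FDR under 0.05, and dashed lines mark a 1.5-fold change. The filled points are Nanos2 with MEKi at 24 h and 72 h and Dnd1 with MEKi at 72 h, while all FGFRi points are open.

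NANOS proteins act through a shared machinery of mRNA decay. All 24 chosen genes of CCR4-NOT, decapping and P-bodies were tested. At 24 h, none was called between the sexes, against 4.00% of all genes higher and 5.99% lower, or between MEKi and DMSO, against 0.0525% and 0.111%, and none had an unadjusted p under 0.05 in limma's treat test, the tool run on this list. Without the threshold, limma called 8 and 6, against 38.8% and 5.89% of all genes. The 72 h sexes differed in 7 of the 24, of which 3 had more transcript in XY, against 22.8% of all genes, and 4 less, against 18.1%, with a list median of 0.17 against 0.10 over all genes. Ddx6, a P-body helicase, was higher in XY by 1.19 (FDR = 1.33e-05), and Eif4enif1, a repressor of translation that binds EIF4E, was lower by 1.53 (FDR = 8.93e-10). Lsm14a, a P-body protein, had a log2 difference of -1.199 (FDR = 0.00117) and Cnot6l, a deadenylase subunit, was lower by 1.12 (FDR = 0.000555). With MEKi for 72 h, 1 was lower, against 5.11% of all genes, the decapping scaffold Edc4, at 70.9 CPM against 137.4 CPM (log2 difference -0.87, FDR = 0.0415).

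Transcripts linked to NANOS2 repression in the field are Stra8, Taf7l, Sohlh2, Sycp1, Sycp2, Sycp3 and Kit, whose means are plotted for all groups. These 7 genes and the other lists were picked with results of these libraries known, so their direction is not independent evidence. Of the 7, 5 were called lower in XY than XX at 24 h, against 5.99% of all genes, and 6 at 72 h, against 18.1%, with median log2 differences of -1.48 and -2.34 against -0.01 and 0.10 over all genes. At 0 h, before culture, 4 of the 7 (Stra8, Taf7l, Sycp1 and Sycp3) were already called lower in XY, against 1.65% of all genes, with a median log2 difference of -1.16 against 0.03. In XY cells the same 4 were called higher at 24 h than at 0 h, against 1.61%. Kit was called at neither 24 h nor 72 h, and Sohlh2 was not called at 24 h. Taf7l, a germ cell TFIID subunit, was at 693.0 CPM in XX 72 h and 118.3 CPM in XY 72 h (log2 difference -2.54, FDR = 3.33e-18). Sycp1, of the synaptonemal complex, was at 2175 CPM in XX 72 h and 317.6 CPM in XY 72 h (log2 difference -2.78, FDR = 1.11e-24). With MEKi, 1 of 7 was higher at 24 h, Stra8, the gene that gates entry into meiosis, against 0.0525% of all genes, and 3 of 7 were higher at 72 h, against 4.01%.

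Sohlh2, a germ cell transcription factor, gave the largest of these. It was at 107.9 CPM in XY 72 h MEKi and 11.7 CPM in DMSO (log2 difference 3.25, FDR = 4.30e-14), whereas at 24 h it was at 133.1 CPM and 94.0 CPM (0.48, FDR = 1). The difference between the times, 2.77, was called (FDR = 3.04e-08). For Taf7l the 72 h difference was 1.04 (FDR = 0.0110), the 24 h difference was -1.59 (FDR = 0.586), and the change between them was 2.64 (FDR = 0.000260). Sycp1, Sycp2 and Sycp3 were not called with MEKi at 24 h or 72 h, although Sycp1 was at 576.3 CPM against 317.6 CPM at 72 h (0.82, FDR = 0.128). At 72 h, 5 of the 7 genes had an unadjusted p under 0.05, and limma without a fold threshold called 6 higher, against 22.2% of all genes. FGFRi called 0 of the 7 at 24 h, against 0.262% of all genes, and 0 at 72 h, against 0.00656%, with 0 unadjusted p-values under 0.05 in limma's treat test.

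**Figure D4:**
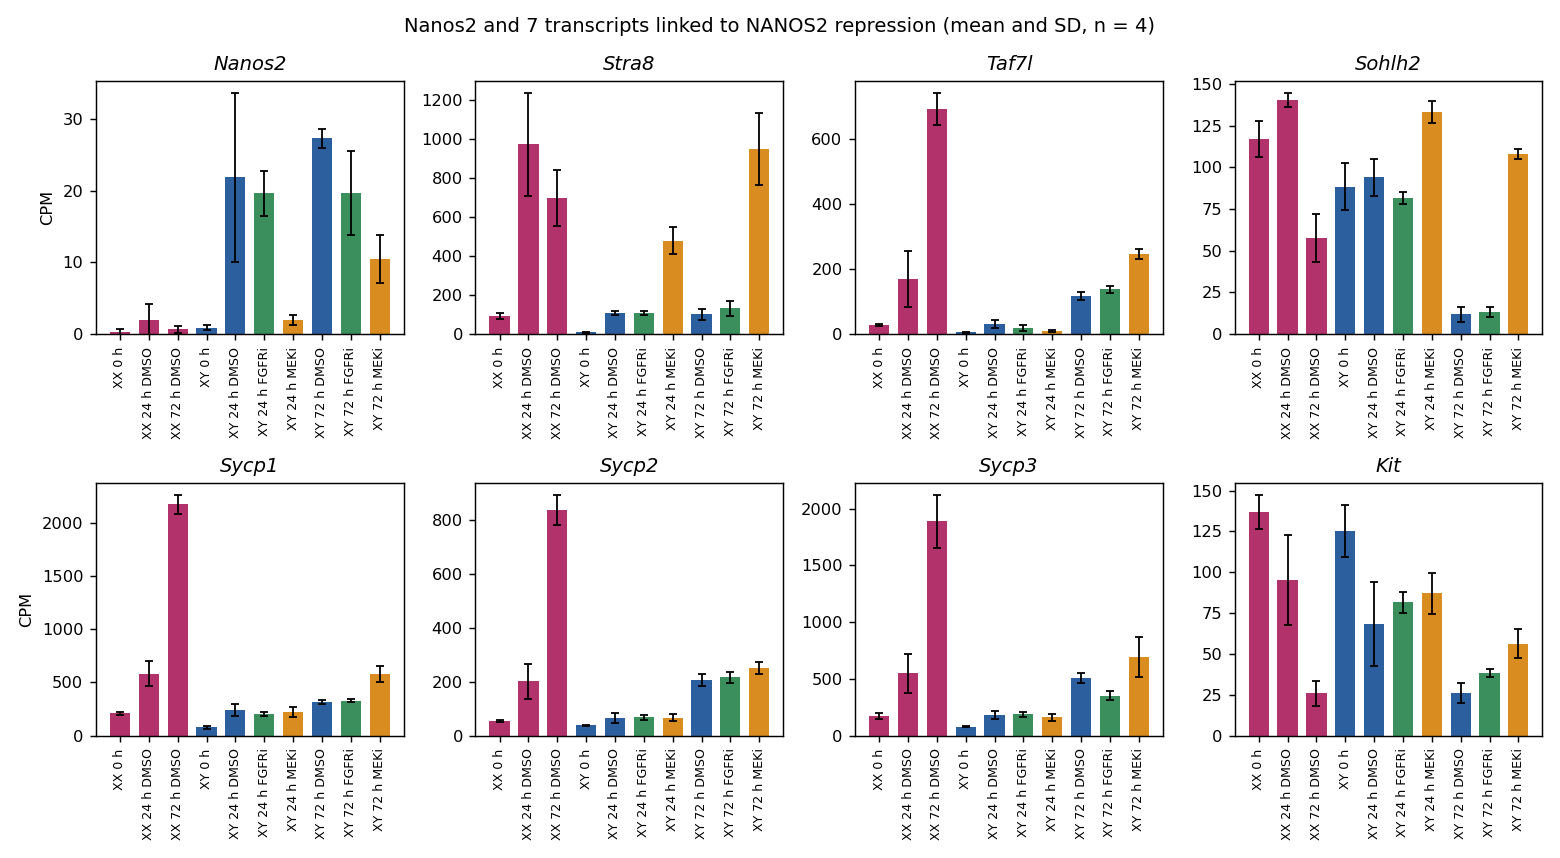
Bars are means of 4 libraries and whiskers 1 SD, in CPM on linear axes from 0, for Nanos2 and 7 transcripts linked to its repression in all 10 groups. Stra8 was high in XX cultures and in both MEKi groups, Sohlh2 was at 107.9 CPM in XY 72 h MEKi against 11.7 CPM in DMSO, and the Sycp genes and Taf7l were highest in XX 72 h.

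Dazl varied least between groups. It ranged from 1184 to 1355 CPM in XX 0 h and from 976.1 to 1218 CPM in XY 0 h. After 24 h with DMSO it was at 1336 to 1543 CPM in XX and 1280 to 1660 CPM in XY, which overlapped (log2 difference -0.04). At 72 h it was at 1306 to 1506 CPM in XX and 848.9 to 942.0 CPM in XY, with no overlap, but the log2 difference of -0.67 was not called against a 1.5-fold change (FDR = 0.388). MEKi libraries at 72 h spread from 986.9 to 1591 CPM, all above DMSO, with a log2 difference of 0.40 (95% interval 0.20 to 0.59) that was not called (FDR = 1). FGFRi libraries were at 721.0 to 927.7 CPM and overlapped DMSO.

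DAZL is known to bind Sycp1, Sycp3, Tex11 and Tex19.1 mRNA, and at 72 h XY cells held 3 of the 4 at a lower level than XX cells, against 18.1% of all genes, and 1 at a higher level, against 22.8%. Tex11, a gene of meiotic recombination, had a mean of 80.1 CPM in XY against 259.9 CPM in XX. Tex19.1, which restrains retrotransposons, had a mean of 227.5 CPM against 100.8 CPM (log2 difference 1.17, FDR = 1.74e-05).

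Ddx4 rose with time in XY cells. XY libraries were at 203.9 to 247.3 CPM at 0 h, 215.6 to 299.5 CPM after 24 h and 492.8 to 563.2 CPM after 72 h with DMSO. The increase from 0 h to 72 h was 1.24 on the log2 scale (SE 0.0963, FDR = 5.35e-08). In XX, libraries were at 224.0 to 240.8 CPM at 0 h, already at 342.8 to 472.2 CPM at 24 h, and at 353.6 to 406.9 CPM at 72 h. The XX differences from 0 h, 0.71 and 0.70, were not called (FDRs of 0.750 and 0.270). Ddx4 was lower in XY at 24 h by a log2 difference of -0.74 (FDR = 0.359) and higher at 72 h by 0.47 (FDR = 1), neither of which was called. MEKi libraries at 72 h, at 327.8 to 451.4 CPM, were below every DMSO library, with a difference of -0.48 (95% interval -0.66 to -0.31) that was not called. Over the time course, XY 72 h against 0 h called 3 of 6 members higher, Nanos2, Dnd1 and Ddx4, against 20.2% of all genes, and XX 72 h against 0 h called 3 of 6 lower, Nanos3, Dnd1 and Lin28a, against 18.4%.

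From 0 h to 24 h, XY cells had 1 of 6 members called higher, Nanos2, against 1.61% of all genes. XX cells had 0 of 6 called, against 3.23% of all genes, with 2 unadjusted p-values under 0.05, while edgeR's glmTreat called 2, Nanos3 and Lin28a, against 7.22% of all genes, and edgeR without a threshold called 5, against 30.6%.

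Of 18 other germ cell RNA-binding protein genes, 17 were tested, all but Rbmy. In XY against XX, 1 was called higher at 24 h, against 4.00% of all genes, and 7 lower, against 5.99%. At 72 h, 4 were called higher, against 22.8%, and 6 lower, against 18.1%. Meioc, which stabilises meiotic mRNAs, had 72 h means of 12.4 CPM in XY and 364.7 CPM in XX (log2 difference -4.96, FDR = 8.15e-21), and the musashi gene Msi2 was at 127.1 CPM and 11.8 CPM (3.45, FDR = 1.23e-14). Ybx2, which stores mRNAs in germ cells, was lower by 2.51 and Msi1 was higher by 2.51. At 24 h, the remaining Nanos family gene Nanos1 averaged 2.84 CPM in XY against 10.3 CPM in XX (-1.81, FDR = 0.0445). At 72 h it averaged 8.37 CPM in XY and 4.58 CPM in XX and was not called (1.05, FDR = 0.295). The Dazl relative Boll at 24 h was at 4.43 CPM and 18.3 CPM (-2.02, FDR = 0.00441). MEKi for 72 h raised 1, against 4.01% of all genes, and lowered 2, against 5.11%. They were Meioc, higher by 2.56 (FDR = 8.31e-08), the helicase gene Ddx25 by a log2 difference of -1.22 (FDR = 1.35e-06) and the piRNA gene Mael by -1.07 (FDR = 0.000401).

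Lin28a fell in XX cultures. XX libraries were at 146.9, 91.5, 89.6 and 99.2 CPM at 0 h, at 57.3, 58.6, 49.1 and 47.9 CPM at 24 h and at 9.64, 7.74, 8.03 and 5.18 CPM at 72 h. No 2 of these times overlapped. The fall from 0 h to 72 h was 3.69 on the log2 scale (SE 0.319, FDR = 2.36e-12), while that to 24 h, -0.89, was not called by limma (FDR = 0.278) and was called by edgeR's glmTreat (FDR = 0.0327). XY libraries were at 46.5, 66.7, 90 and 69.8 CPM at 0 h, 44.6, 68.2, 61.6 and 55.7 CPM at 24 h and 44.8, 35.5, 32.6 and 45.8 CPM at 72 h with DMSO, and the 72 h difference of -0.73 was not called (FDR = 0.387). XY exceeded XX at 72 h by 2.37 (SE 0.333, FDR = 6.08e-06).

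Germ cell markers fell in the same XX cells. All 6 (Pou5f1, Dppa3, Sall4, Kit, Dppa5a and Tfap2c) were called lower at 72 h than at 0 h, against 18.4% of all genes. Pou5f1, the gene whose promoter drives the sorting reporter, was at 89.6 CPM at 0 h and 8.34 CPM at 72 h, beside Ddx4 at 234.8 ± 7.60 and 380.4 ± 21.9 CPM. Of the 20 somatic and blood markers tested, 4 were higher at 72 h than at 0 h, against 18.8% of all genes, led by Foxl2 (9.41 CPM against 1.07 CPM), Nr2f2 (29.7 CPM against 7.79 CPM) and Gata4 (6.12 CPM against 1.42 CPM), and 1 was lower, against 18.4%, Pecam1 (6.34 CPM against 111.7 CPM). In XX 0 h, Pecam1 stood far above the other endothelial markers on the list, Cdh5 at 0.658 CPM and Kdr at 0.465 CPM. Which cells the Pecam1 RNA came from was not tested. The part of all these markers in the falls of Lin28a, Dnd1 and Nanos3 was not tested either.

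With either inhibitor for 24 h, Lin28a was below every DMSO library. MEKi libraries were at 22.8, 30.8, 38.1 and 24.1 CPM and FGFRi libraries at 24.3, 26.1, 43.04 and 26.4 CPM. The differences from DMSO were -0.997 (95% interval -1.37 to -0.62) and -0.89 (-1.28 to -0.49), and neither was called against a 1.5-fold change (FDR = 1 for each). Without a fold threshold, limma gave FDRs of 0.000319 and 0.00265, and blood marker genes were higher in the MEKi group as given above. Against XY 0 h, the 24 h MEKi group was lower by a log2 difference of -1.24 (SE 0.181, FDR = 0.0132), the 1 member of 6 called there, against 1.88% of all genes called lower. This call was lost in 5 of 18 alternatives, among them without XY 0 h replicate 6 (FDR = 0.0610), MEKi replicate 1 (FDR = 0.136) or MEKi replicate 6 (FDR = 0.0731). At 72 h the inhibitor groups were at 31.0 ± 3.69 CPM with MEKi and 42.3 ± 3.93 CPM with FGFRi, both overlapping 39.7 ± 6.59 CPM in DMSO.

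All 14 genes chosen around LIN28 and let-7 were tested. In XX from 0 h to 72 h, 2 were higher, against 18.8% of all genes, and 7 lower, against 18.4%, with a list median of -0.90 against -0.01 over all genes. Mycn, a let-7 target, was at 15.3 CPM against 167.4 CPM (log2 difference -3.48, FDR = 6.30e-17), and Arid3b, another, was lower by 2.25. Igf2bp1, which stabilises mRNAs, was lower by 1.92, and Xpo5, which exports microRNA precursors, was lower by 1.38. The list also fell in XY with DMSO over the same time. There 0 were higher, against 20.2% of all genes, and 4 lower, against 15.2%, with a list median of -0.59 against 0.06. Mycn was among these 4, at 18.4 CPM against 170.6 CPM. Between the sexes at 72 h, 3 were called higher in XY, against 22.8% of all genes, and 4 lower, against 18.1%. Arid3b and Hmga2 were higher by 1.80 and 1.57, whereas Dis3l2, which degrades uridylated let-7 precursors, and Dgcr8, of the microprocessor, were lower by 1.70 and 1.55. With MEKi for 72 h, 1 was called higher, against 4.01% of all genes, and 0 lower, against 5.11%. It was Mycn, at 44.9 CPM against 18.4 CPM (1.28, FDR = 0.00507).

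Across the 10 group means of log2 CPM, pairs of members ran from opposite to similar courses. As a description over points that share libraries, depth and pool, Pearson's r was 0.87 for Nanos3 and Dnd1, 0.68 for Nanos2 and Nanos3, 0.68 for Dnd1 and Lin28a, and -0.61 for Dazl and Ddx4. Among all tested genes, the profile of Nanos2 was nearest to those of Gm5475 (0.978), Efnb3 (0.971) and Foxp1 (0.961), and that of Nanos3 to Rnf25 (0.985), Zfp1006 (0.978) and Tmem50a (0.976). Dnd1 was nearest to Amdhd2 (0.988), Alkbh7 (0.986) and Dppa4 (0.986), a gene of pluripotent cells. Dazl was nearest to Rps23 (0.995), Pnisr (0.984) and Trpm7 (0.966), Ddx4 to Bach2 (0.980), Prr19 (0.976) and Clstn2 (0.971), and Lin28a to Eif4ebp2 (0.982), Stk24 (0.968) and Grk2 (0.960).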

How the data were processed

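RNA from sorted germ cells was primed at the poly(A) tail with a sample index and a unique molecular identifier, pooled, amplified and sequenced on a NextSeq2000. The authors demultiplexed reads with scPipe, aligned them to GRCm39 with Rsubread and deposited 1 table of counts, molecules per gene and library after collapsing identifiers, not normalised. The versions of these tools are not given in the sources used here. Identifiers were matched to a gene annotation for 40391 of 42422 genes, and the 2031 others held 1.05% of counts. Libraries were assigned to groups from the labels.

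Genes were filtered (edgeR 4.0.16 filterByExpr, minimum count 10, total 15), scaled by TMM and fitted with voomWithQualityWeights in limma 3.58.1 (R 4.3.3) with 1 mean per group over all 40 libraries. Contrasts were tested by treat against a 1.5-fold change, with Benjamini-Hochberg FDRs over 15252 genes. Alternatives were DESeq2 1.42.0 (its size factors and its Wald test against a 1.5-fold change), no filter, limma and edgeR without a fold threshold, edgeR glmTreat, voom without sample weights, only the groups compared, a replicate block, and each library left out. Removal of counts expected through the shared index was added after seeing the data. The fit was tested on simulated data. Intervals of count ratios cover counting error only. No 2 libraries were duplicates. The members and lists were chosen with earlier results of these data known. Named genes were the 6 members, the 3 genes most alike each member, and from longer lists called genes with the largest changes. The germ cell markers, the transcripts linked to NANOS2 and those bound by DAZL were named in full, called or not. Insl3, Cyp11a1, Star and Kdr were named after their levels were seen, as were Pecam1 and Cdh5 outside the contrasts that called them.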

Additional observations from a re-analysis of the deposited data

Results flagged for a closer look

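In 60 groups of 4 libraries (6 genes in 10 groups), 4 libraries stood apart from the other 3 by more than Dixon's 95% critical value for 4 samples, and chance gives about 1 in 20 groups. Dnd1 was at 131.7 CPM in XY 24 h MEKi replicate 4, below the others of its group. Ddx4 was at 299.5 CPM in XY 24 h DMSO replicate 3, Lin28a was at 146.9 CPM in XX 0 h replicate 2, and Lin28a was at 43.04 CPM in XY 24 h FGFRi replicate 4, each above the others of its group.

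In 2 cases an effect differed between conditions by a test of the difference itself. For Dnd1, the MEKi difference at 72 h minus that at 24 h was -1.21 on the log2 scale (limma treat, FDR = 0.0383), a call that was lost in 15 of 26 alternatives, with Dnd1 lower at 72 h in 4 of 4 MEKi libraries than in any DMSO library. For Nanos3, the difference of XY and XX at 24 h minus that at 0 h was 2.41 (FDR = 0.00376), a call that held in all 26 alternatives. All 4 XY libraries were above every XX library at 24 h, as they already were at 0 h.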

How the results depend on the processing

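Of 96 member results (6 genes in 16 contrasts), 24 were called. Over 1820 values under alternatives, no called result changed sign, 31 lost the call and 76 uncalled results gained one, most of the gains in the tests without a fold threshold, whose construction asks for less. In 12 contrasts these tests moved the number of members called by over 1.5 times, and under limma and edgeR, in that order, it was 2 and 2 for XY against XX at 0 h (0 in the main test), 4 and 4 at 24 h (2), 4 and 4 for XY 24 h against 0 h (1), 6 and 6 for XY 72 h against 0 h (3), 4 and 5 for XX 24 h against 0 h (0), 1 and 1 for FGFRi at 24 h (0), 3 and 3 for MEKi at 24 h (1), 5 and 5 for MEKi at 72 h (2), 5 and 4 for MEKi against FGFRi (1), 3 and 3 for MEKi at 24 h against 0 h (1), 3 and 2 for the change of the MEKi effect with time (1), and 4 and 4 for the change of the sex difference (1). In these 12 contrasts the same tests called 5.89% to 65.7% of all genes with limma and 5.59% to 63.8% with edgeR. Both shares were lowest for MEKi at 24 h and highest for XY 72 h against 0 h, the contrast where all 6 members were called. In the other 4 contrasts the numbers were 6 and 6 for XY against XX at 72 h (4), 4 and 4 for XX 72 h against 0 h (3), 5 and 4 for XY 72 h MEKi against XX 72 h (4), and 0 and 0 for FGFRi at 72 h (0). Shares of all genes called without a fold threshold were not drawn up for these 4 contrasts. Their counts are therefore not read as results about the members. EdgeR's glmTreat called 2 members in XX 24 h against 0 h, where it called 7.22% of all genes, and in XY 24 h against 0 h and both tests of change. Shares of all genes were not drawn up for glmTreat in those other contrasts or for the settings that follow. DESeq2's Wald test, no filter and voom without sample weights each called 1 for MEKi at 72 h and 0 for the change of the MEKi effect, which was also 0 with only the groups compared and with crossed counts removed. Without the filter, 0 were called for MEKi at 24 h against 0 h. With crossed counts removed, the change of the sex difference called 2. The cause was not tested.

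Replicate numbers did not pair the libraries: correlations of same-numbered deviations ran from -0.123 to 0.150. With the replicate block, 1 member was called for MEKi at 72 h, 0 for MEKi at 24 h against 0 h and 0 for the change of the MEKi effect, and the call of Lin28a between XY 72 h MEKi and XX 72 h was lost (FDR = 0.0641). Leaving out 1 library at a time gave 1 to 2 members for MEKi at 72 h, 0 to 1 for MEKi at 24 h against 0 h, 0 to 1 for the change of the MEKi effect, 1 to 2 for the change of the sex difference and 1 to 2 for XY 24 h against 0 h. With only the groups compared, Nanos2 was filtered out of 4 contrasts (XY against XX at 0 h, XX 24 h and XX 72 h against 0 h, and XY 24 h MEKi against 0 h) and gave no value. Depth limited Nanos2 most, since groups with 3 to 17 counts in all gave wide intervals.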
